A study of Homo sapiens with 8 samples.

Results

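The genes described here are 33 members of the p53 pathway, most of them direct transcriptional targets of p53, followed through 2 perturbations of A549 cells. A549 is an established human lung adenocarcinoma line. Members were found by symbol, as given after the Ensembl identifier in each row's name, and each of the 33 matched 1 of the 57820 genes in every library. All 33 passed the filter on low counts. They were divided by role into 6 genes of feedback on p53 and its network, 10 genes of cell cycle arrest and growth control, 13 genes of cell death signalling and survival, and 4 genes of DNA repair and nucleotide supply.

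p53 is a transcription factor that is held at a low level by the ubiquitin ligase MDM2, itself the product of a p53 target gene. When DNA is damaged or ribosome assembly is disturbed, p53 escapes this control and switches on genes that stop the cell cycle, repair DNA or start cell death. A549 cells are known to carry a deletion of the CDKN2A locus, whose ARF product restrains MDM2. MGA is a DNA-binding repressor that pairs with MAX, the obligate partner of the oncoprotein MYC, and MYC-MAX and MGA-MAX pairs are both known to bind the E-box CACGTG.

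In one experiment cells carried a vector for MGA overexpression or an empty vector. In the other, cells received an siRNA against MYC (siMYC) or a negative control siRNA (siNC). Each of these 4 groups had 2 libraries, A and B. The labels give neither the time of harvest nor whether a vector line was a clone, and nothing says that A and B came from separate cultures. Each p-value therefore sets a group difference against a spread between libraries, estimated jointly over the 4 groups, that may be only technical.

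Libraries held 820428 to 2129006 expected counts, and a member had 6 to 1206 of them in any library. MGA had 102500 and 103700 CPM with its vector against 121.6 and 81.54 CPM with empty vector, and its reads took up 9.54% and 9.68% of both MGA libraries. MYC had 48.26 and 41.12 CPM with siMYC against 219.3 and 182.5 CPM with siNC. In the other experiment MYC had 295.6 and 347 CPM with MGA against 233.9 and 241 CPM with empty vector, without overlap. The epithelial keratin genes KRT8 and KRT18 carried nearly all of the summed level of 5 epithelial markers, which was 2626 to 5778 TPM. EPCAM was listed at 0 in both MGA libraries and in empty vector A, had 1.199 CPM in empty vector B and 3.677 to 10.43 CPM in the siRNA experiment. KRT19 had 6.946 to 11.99 CPM in the vector experiment. It had 110.3 and 90.21 CPM with siMYC against 46.44 and 40.24 CPM with siNC (log2 fold change 1.23, edgeR adjusted p = 6e-07). CDH1 went the other way between the controls, with 55.57 and 62.36 CPM with empty vector against 22.15 and 47.23 CPM with siNC. The part of these marker differences in the results was not tested. Of the other cell types, 3 of 4 leukocyte markers and both endothelial markers found were at 0 in all libraries. The remaining leukocyte marker, CD14, had 8.2 and 12.08 TPM with siMYC against 3.02 and 3.95 TPM with siNC. It had 4.59 to 7.67 TPM in the vector experiment and did not pass the filter on low counts. Of 4 fibroblast markers 1 was at 0 in all libraries, and their summed level was 86.1 and 87.74 TPM with siMYC against 7.85 and 19.79 TPM with siNC. Nearly all of that was COL1A1, at 84.85 and 87.2 TPM with siMYC against 7.85 and 19.79 TPM with siNC. Its part in the siMYC results was not tested. In bulk RNA, a change in the share of cells that express a gene and a change in RNA per cell cannot be told apart.

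Promoter letters were read for the members that have an entry in the RefSeq promoter table (GRCh38.p14), which holds 250 bases before to 50 bases after each start. Of the 33 members 27 had an entry. The E-box CACGTG, the same on both strands, was present in 4 of the 27 member genes (14.8%) and in 8.77% of all 27305 genes in the table. A p53 half-site, searched as the published consensus on both strands, was present in 7 of the 27 (25.9%) and in 8.06% of all genes. A full site, taken as a pair of half-sites no more than 13 bases apart, was present in DDB2 among the members and in 10 genes in all (0.0366%). The other 6 members with a half-site had no second one within that distance. A match describes the letters alone and says nothing of binding. Windows of some of the members with a motif, selected by name, are shown 5′ to 3′ on the gene's strand, with E-boxes and half-sites in capitals. AEN held both motifs, the half-site at bases -34 to -25 from the start and the E-box at bases 9 to 14 after it. BAX held 4 E-boxes, CCNG2 and BBC3 held 1 each, and PLK2, FDXR and DDB2 held half-sites. FAS, RPS27L and SESN1 also held half-sites, and their windows are not shown.
AEN, chr15:88621280-88621367, plus strand: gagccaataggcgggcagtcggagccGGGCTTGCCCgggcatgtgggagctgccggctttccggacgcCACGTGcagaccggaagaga
CCNG2, chr4:77157147-77157206, plus strand: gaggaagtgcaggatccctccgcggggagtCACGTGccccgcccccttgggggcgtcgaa
BBC3, chr19:47232867-47232917, minus strand: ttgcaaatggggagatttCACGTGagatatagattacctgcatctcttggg
BAX, chr19:48954725-48954874, plus strand: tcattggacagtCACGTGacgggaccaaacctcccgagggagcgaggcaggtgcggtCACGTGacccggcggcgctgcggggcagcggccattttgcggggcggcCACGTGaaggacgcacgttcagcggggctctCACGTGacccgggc
PLK2, chr5:58460186-58460236, minus strand: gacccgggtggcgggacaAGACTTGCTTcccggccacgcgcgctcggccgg
FDXR, chr17:74872995-74873044, minus strand: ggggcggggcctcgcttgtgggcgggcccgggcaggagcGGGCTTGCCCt
DDB2, chr11:47214944-47215003, plus strand: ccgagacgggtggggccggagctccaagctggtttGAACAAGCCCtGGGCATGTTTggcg

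With MGA overexpression, 13 of the 33 members rose and 0 fell. By role, 1 of 6 feedback genes, 6 of 10 arrest genes, 4 of 13 death genes and 2 of 4 repair genes rose. The rises were from 1.4-fold for CDKN1A to 2.34-fold for SERTAD1. A gene was called at a Benjamini-Hochberg adjusted p under 0.05 in edgeR's quasi-likelihood test. At that threshold 4.96% of the 11218 genes tested were higher and 4.0% lower with MGA, against 39.4% of the members higher. Members were chosen with earlier results of these data known. This contrast with all genes, and those below, therefore describe the list and are no test of it. In the wider list of 40 other p53 targets below, 5.26% of the genes tested were higher with MGA. At an unadjusted p under 0.05, 23 members were higher and 0 lower, but the share of all genes at that threshold was not counted. DESeq2 called 11 members higher and 0 lower, among 358 genes called in all. It gave no adjusted p to 5872 genes, 8 of them members, so its counts do not compare directly with the edgeR shares. The median log2 fold change of the members was 0.59, beside 0.011 over all genes tested, and 30 of the 33 values were positive (27 with library sizes alone). With library sizes alone as the scaling, the median of all genes moved to -0.116 and that of the members to 0.46. The gap between these medians, 0.57, is the same under every size factor by construction and is no test of the scaling. The balance of all calls also moved, being 556 higher to 449 lower with TMM, 387 to 628 with upper-quartile factors and 300 to 821 with library sizes alone. On the deposited TPM values, tested with limma on log2(TPM + 1), 0 members were called with MGA, among 71 genes called in all.

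**Figure D1:**
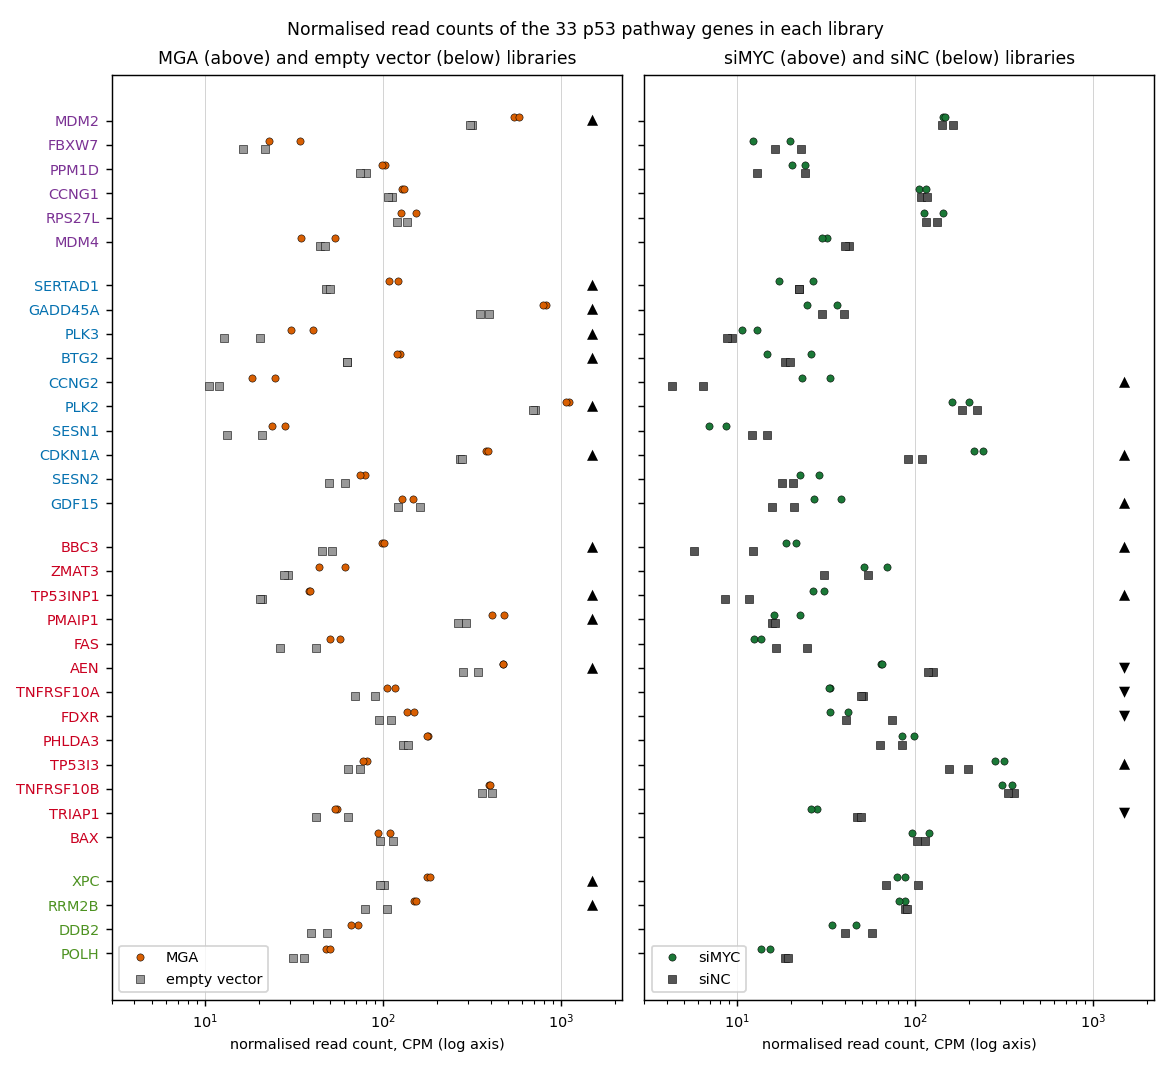
Normalised read count (CPM, log axis) of each of the 33 genes in each library, with MGA above empty vector at left and siMYC above siNC at right, grouped from top to bottom as feedback, arrest, death and repair genes. Each point is 1 library and triangles mark calls in edgeR (up, higher; down, lower): 13 higher and 0 lower with MGA, and 6 higher and 4 lower with siMYC.

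With siMYC, 6 members rose and 4 fell, the falls all among the death and survival genes. Over all genes tested, 19.0% were higher and 20.0% lower with siMYC, so the members' shares of 18.2% higher and 12.1% lower were close to or below the background. The median log2 fold change of the members was -0.03, beside 0.011 over all genes tested. No feedback gene and no repair gene was called by edgeR, DESeq2 or limma on TPM with siMYC, and at an unadjusted p under 0.05 in edgeR 1 feedback gene was lower and 0 were higher, and 0 repair genes were either. The plot of normalised read counts by library shows the contrast between the experiments: at left the points of 13 genes shift one way, and at right the shifts go both ways.

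Among the feedback genes, MDM2 (ENSG00000135679.17), the ubiquitin ligase that limits p53, was the only one of the 6 called. It had 544.7 and 576 CPM with MGA against 314.9 and 305.8 CPM with empty vector. The MGA libraries lay above both controls, with a log2 fold change of 0.85 (SE 0.10, edgeR adjusted p = 1.9e-06). The siMYC libraries had 142.9 and 146.1 CPM against 141.5 and 163.3 CPM with siNC. These ranges overlapped, with a log2 fold change of -0.08 (95% interval -0.31 to 0.14). The MGA response exceeded the siMYC response by 0.93 on the log2 scale (SE 0.15, edgeR adjusted p = 5.8e-05). In the GENCODE annotation, exons of MDM2 overlap those of the carboxypeptidase gene CPM on the opposite strand and of a processed pseudogene, AC025423.2, on the same strand. Whether the counting used strand is not given, so reads of MDM2 and these genes may not be separated. MDM2 was among the 3 members with expected counts that were not whole, such as 596.8 in MGA A.

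The other 5 feedback genes were not called in either experiment. PPM1D, the phosphatase that reverses p53 activation, had a log2 fold change of 0.38 with MGA (adjusted p = 0.22 in edgeR) and 0.21 with siMYC. MDM4, the non-catalytic relative of MDM2, had -0.07 with MGA and -0.41 with siMYC. FBXW7, the ubiquitin ligase adaptor that targets MYC among other proteins, had 0.56 with MGA and -0.23 with siMYC. Cyclin G1 (CCNG1) had 0.25 and -0.03, and RPS27L, a relative of a ribosomal protein, had 0.12 and 0.02, with MGA and siMYC in that order.

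Genes of the arrest and growth control group, called arrest genes for short, made up 6 of the 13 rises with MGA. The group's name does not give the direction in which each gene acts on the cell cycle. GADD45A (ENSG00000116717.7), a growth arrest and DNA damage gene, had 821.1 and 785.1 CPM with MGA against 348.5 and 393.3 CPM with empty vector. Both MGA libraries stood above both controls, a 2.17-fold rise (log2 fold change 1.12, SE 0.11, edgeR adjusted p = 7.1e-08). In the siRNA experiment GADD45A had 36.31 and 24.55 CPM with siMYC against 30 and 39.65 CPM with siNC, overlapping ranges (log2 fold change -0.18, 95% interval -0.60 to 0.24). The responses differed by 1.29 (SE 0.23, edgeR adjusted p = 0.00022).

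SERTAD1 (ENSG00000197019.4), a binding partner of CDK4 and regulator of E2F activity, had 120.4 and 107.5 CPM with MGA against 47.47 and 50.37 CPM with empty vector. It was the largest rise among the 13, at a log2 fold change of 1.23 (SE 0.19, edgeR adjusted p = 8.9e-05). With siMYC the values were 26.66 and 17.18 CPM against 22.15 and 22.16 CPM with siNC, which overlapped. The anti-proliferative gene BTG2 (ENSG00000159388.5) had 123.2 and 119.2 CPM with MGA against 62.52 and 62.36 CPM with empty vector. The groups stood apart (log2 fold change 0.96, SE 0.19, edgeR adjusted p = 0.001), whereas with siMYC its 14.71 and 25.77 CPM enclosed the 18.57 and 19.83 CPM of siNC.

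The polo-like kinases PLK2 and PLK3, which take part in stress checkpoints, both rose with MGA. PLK2 (ENSG00000145632.10) had 1100 and 1060 CPM with MGA against 708.5 and 688.3 CPM with empty vector, without overlap (log2 fold change 0.63, SE 0.10, edgeR adjusted p = 7.7e-05). Its siMYC values were 201.3 and 159.6 CPM against 221.5 and 182.5 CPM with siNC, which overlapped, and its responses differed by 0.77 (SE 0.15, edgeR adjusted p = 0.0005). PLK3 (ENSG00000173846.8) had 40.14 and 30.38 CPM with MGA against 12.74 and 20.39 CPM with empty vector (log2 fold change 1.11, SE 0.32, edgeR adjusted p = 0.028), and 10.57 and 12.89 CPM with siMYC against 9.287 and 8.747 CPM with siNC. PLK3 was among the members with the fewest reads, and it was no longer called when empty vector A, empty vector B or MGA A was left out (log2 fold changes of 0.803, 1.475 and 0.878), or with library sizes alone (0.981).

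CDKN1A (ENSG00000124762.9), which encodes the cyclin-dependent kinase inhibitor p21, rose in both experiments. It had 378.6 and 386.7 CPM with MGA against 268.6 and 278.2 CPM with empty vector (log2 fold change 0.48, SE 0.11, edgeR adjusted p = 0.0052). The siMYC libraries held 213.2 and 240.6 CPM against 91.44 and 109 CPM with siNC (log2 fold change 1.16, SE 0.12, edgeR adjusted p = 6.6e-09). Neither pair of groups overlapped. The MGA response was smaller than the siMYC response by 0.68 on the log2 scale, as the difference was -0.68 (SE 0.16, edgeR adjusted p = 0.0034). The MGA call was lost when any 1 of the 4 vector libraries was left out, at log2 fold changes of 0.456 to 0.504 and adjusted p of 0.051 to 0.079 in edgeR, while the siMYC call was kept under every alternative tried.

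CCNG2 and GDF15 rose with siMYC and not detectably with MGA. CCNG2 (ENSG00000138764.9), an atypical cyclin linked to arrest, had 22.98 and 33.14 CPM with siMYC against 4.286 and 6.415 CPM with siNC. In counts this was the largest rise of a member, 4.99-fold (log2 fold change 2.32, SE 0.34, edgeR adjusted p = 3.7e-06), while on log2(TPM + 1) TP53INP1 had the larger value (1.567 against 1.496). With MGA it had 18.25 and 24.53 CPM against 10.42 and 11.99 CPM with empty vector, also without overlap, but the log2 fold change of 0.91 did not pass (SE 0.40, edgeR adjusted p = 0.17), and the difference of responses did not either (-1.41, 95% interval -2.56 to -0.26, edgeR adjusted p = 0.08). GDF15 (ENSG00000130513.6), a secreted stress cytokine, had 38.14 and 27 CPM with siMYC against 20.72 and 15.74 CPM with siNC (log2 fold change 0.88, SE 0.25, edgeR adjusted p = 0.0059). With MGA its 127.7 and 146 CPM lay within the 120.4 and 160.7 CPM of empty vector (log2 fold change -0.04, 95% interval -0.37 to 0.29), and the responses differed by -0.92 (SE 0.30, edgeR adjusted p = 0.03). Leaving out siNC B or siMYC A took the siMYC call of GDF15 away (log2 fold changes of 0.664 and 0.581), and the call of its difference was lost without empty vector B, MGA A, siNC B or siMYC A (differences of -0.813 to -0.627). Both calls of GDF15 were also lost with limma on either TPM scale, and that of its difference with DESeq2.

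The sestrins SESN1 and SESN2, which act in antioxidant defence and restrain growth signalling, were not called in either experiment. SESN2 had log2 fold changes of 0.46 with MGA and 0.39 with siMYC. SESN1 had 0.59 with MGA and -0.81 with siMYC, and the difference of 1.40 (SE 0.50) was just past the threshold in edgeR (adjusted p = 0.049). That call was lost when any library other than empty vector A was left out (differences of 1.119 to 1.542), and with RLE factors, upper-quartile factors, library sizes alone or the MGA gene removed (1.224 to 1.357).

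With MGA, 4 of the 13 death genes rose (30.8%) and 0 fell, beside 4.96% and 4.0% of all genes tested. With siMYC, 3 rose (23.1%) and 4 fell (30.8%), beside 19.0% and 20.0% of all genes tested. BBC3 (ENSG00000105327.11), the BH3-only protein PUMA that neutralises survival proteins of the BCL2 family, had 97.62 and 100.5 CPM with MGA against 45.15 and 51.57 CPM with empty vector (log2 fold change 1.03, SE 0.20, edgeR adjusted p = 0.001). With siMYC it had 18.84 and 21.48 CPM against 5.715 and 12.25 CPM with siNC (log2 fold change 1.1, SE 0.30, edgeR adjusted p = 0.0049). It was 2.05-fold higher with MGA and 2.14-fold higher with siMYC, the difference of the log2 responses being -0.07 with a 95% interval of -0.77 to 0.64. The siNC libraries differed widely: the siMYC call was lost without siNC A (log2 fold change 0.702), and the log2 fold change was 1.774 without siNC B. With limma the siMYC call of BBC3 was kept on log2(TPM + 1) and lost on log2(TPM + 0.1).

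PMAIP1 (ENSG00000141682.11), the other BH3-only gene, NOXA, had 407.8 and 479 CPM with MGA against 262.8 and 290.2 CPM with empty vector. It rose by 0.68 on the log2 scale (SE 0.12, edgeR adjusted p = 0.00027). PMAIP1 had 22.52 and 15.96 CPM with siMYC against 15.72 and 16.33 CPM with siNC, overlapping ranges, and the difference of responses did not pass (0.39, 95% interval -0.22 to 0.99). BAX, the pore-forming effector that these proteins act on, had log2 fold changes of -0.04 with MGA (95% interval -0.38 to 0.31) and -0.03 with siMYC (95% interval -0.31 to 0.25) in counts. In TPM, BAX had 272.1 and 255.2 with MGA against 200.8 and 219 with empty vector, without overlap, and its log2(TPM + 1) difference was 0.33 (limma adjusted p = 0.41), so the units disagreed for this gene. Its promoter window above is the one with 4 E-boxes.

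TP53INP1 (ENSG00000164938.9), a p53-induced nuclear protein with roles in cell death and autophagy, had 38.32 and 38.55 CPM with MGA against 20.84 and 20.39 CPM with empty vector (log2 fold change 0.90, SE 0.28, edgeR adjusted p = 0.04). It had 26.66 and 30.68 CPM with siMYC against 8.573 and 11.66 CPM with siNC (log2 fold change 1.46, SE 0.26, edgeR adjusted p = 6.1e-05). CDKN1A, BBC3 and TP53INP1 were thus the 3 members called higher in both experiments. The MGA call of TP53INP1 was lost when any 1 of the 4 vector libraries was left out, at log2 fold changes of 0.874 to 0.909. It was also lost with upper-quartile factors, library sizes alone, no filter or TPM. The siMYC call of TP53INP1 was kept under every alternative that tested the gene. A minimum count of 50 left it untested.

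AEN (ENSG00000181026.13), a nuclease that degrades DNA during apoptosis, was the only member called in opposite directions. It had 468 and 468.5 CPM with MGA against 280.2 and 338.2 CPM with empty vector (log2 fold change 0.60, SE 0.11, edgeR adjusted p = 0.00041). With siMYC it had 63.88 and 65.05 CPM against 125.7 and 118.4 CPM with siNC (log2 fold change -0.92, SE 0.13, edgeR adjusted p = 3e-06). Neither pair of groups overlapped, and the difference of 1.52 (SE 0.17, edgeR adjusted p = 3.1e-07) was kept under every alternative tried. Its promoter window is the one above that holds both an E-box and a p53 half-site.

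A further 3 genes fell with siMYC and were not called with MGA. The death receptor gene TNFRSF10A (ENSG00000104689.5) had 33.09 and 32.52 CPM with siMYC against 50.72 and 49.57 CPM with siNC (log2 fold change -0.61, SE 0.18, edgeR adjusted p = 0.0082). It had 115.9 and 105.1 CPM with MGA against 69.46 and 89.94 CPM with empty vector (log2 fold change 0.48, edgeR adjusted p = 0.072), and its responses differed by 1.09 (SE 0.25, edgeR adjusted p = 0.0023). Its paralogue TNFRSF10B, which encodes the other TRAIL death receptor, had log2 fold changes of 0.04 with MGA (95% interval -0.18 to 0.26) and -0.07 with siMYC (95% interval -0.26 to 0.13). The receptors share sequence, but as rounded here the expected counts of both genes were whole in all 8 libraries. No division of reads between them is seen in these values.

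TRIAP1 (ENSG00000170855.3), a survival factor that opposes apoptosis, had 28.03 and 25.77 CPM with siMYC against 47.15 and 49.57 CPM with siNC (log2 fold change -0.84, SE 0.20, edgeR adjusted p = 0.0011). The groups stood apart there, whereas its 54.74 and 53.74 CPM with MGA lay within the 63.68 and 41.97 CPM of empty vector. FDXR (ENSG00000161513.7), the mitochondrial ferredoxin reductase, had 33.09 and 41.73 CPM with siMYC against 40.72 and 74.06 CPM with siNC. These ranges overlapped, and although the gene was called (log2 fold change -0.67, SE 0.21, edgeR adjusted p = 0.012), the call was lost without siNC B (log2 fold change -0.157) and without siMYC A (-0.494). With MGA, FDXR had 135 and 149.5 CPM against 94.93 and 110.3 CPM with empty vector (log2 fold change 0.47, edgeR adjusted p = 0.12), and its responses differed by 1.13 (SE 0.28, edgeR adjusted p = 0.0047). DESeq2 called none of TNFRSF10A, TRIAP1 and FDXR with siMYC, and neither did limma on either TPM scale.

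TP53I3 (ENSG00000115129.9), an oxidoreductase gene also known as PIG3, had 279.9 and 314.2 CPM with siMYC against 155 and 197.1 CPM with siNC, without overlap (log2 fold change 0.74, SE 0.11, edgeR adjusted p = 5.9e-06). With MGA it had 81.2 and 77.11 CPM against 74.09 and 63.56 CPM with empty vector (log2 fold change 0.20, 95% interval -0.19 to 0.60). Exons of TP53I3 overlap those of FAM228B on the opposite strand. The remaining death genes were not called in either experiment. The receptor gene FAS had log2 fold changes of 0.64 with MGA and -0.69 with siMYC, and the difference of 1.33 (SE 0.38, edgeR adjusted p = 0.014) was called, though not without empty vector B (1.053) or siNC B (1.0). ZMAT3, a zinc finger RNA-binding protein, had 0.91 with MGA (edgeR adjusted p = 0.053) and 0.45 with siMYC, and PHLDA3, an inhibitor of AKT signalling, had 0.41 and 0.27 in the same order.

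All 4 repair genes had positive values with MGA in counts and in TPM, and 2 were called in counts. None was called with siMYC. XPC (ENSG00000154767.10), which recognises damage for nucleotide excision repair, had 176.1 and 183.4 CPM with MGA against 100.7 and 95.94 CPM with empty vector (log2 fold change 0.87, SE 0.16, edgeR adjusted p = 0.0008). RRM2B (ENSG00000048392.7), the p53-inducible subunit of ribonucleotide reductase, had 148.7 and 151.9 CPM with MGA against 104.2 and 79.15 CPM with empty vector (log2 fold change 0.71, SE 0.15, edgeR adjusted p = 0.0034). Both genes stood apart between the vector groups, and the call of RRM2B was lost without empty vector B (log2 fold change 0.521). On log2(TPM + 1) the rise of XPC with MGA was smaller, at 0.51 (limma adjusted p = 0.46). Its weighted length was 3370 and 3298 bases with MGA against 2188 and 3127 bases with empty vector. Exons of XPC overlap those of LSM3 on the opposite strand. With siMYC, XPC had 87.32 and 78.55 CPM against 102.9 and 68.23 CPM with siNC, which overlapped, and RRM2B had 86.86 and 80.39 CPM against 87.87 and 89.22 CPM with siNC, just below. Their siMYC log2 fold changes were close to 0, at -0.02 for XPC and -0.08 for RRM2B in counts, and positive on log2(TPM + 1), at 0.27 for XPC and 0.32 for RRM2B. DDB2, the damage sensor whose promoter holds the full p53 site, had log2 fold changes of 0.66 with MGA (edgeR adjusted p = 0.071) and -0.31 with siMYC, and POLH, the translesion DNA polymerase eta, had 0.54 and -0.39.

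Taking the experiments side by side, 3 members rose in both, 9 rose with MGA and were not called with siMYC, 3 rose and 3 fell with siMYC and were not called with MGA, 1 was called in opposite directions, and 14 were called in neither. The difference of the 2 responses was tested directly, as the experiments share no libraries. Of the members 14 were higher (42.4%) and 2 lower (6.06%) in that difference, against 10.3% higher and 8.22% lower among all genes tested. The median difference was 0.75 over the members and 0.033 over all genes. The 2 lower were CDKN1A and GDF15. The 14 higher were MDM2, GADD45A, BTG2, PLK2, SESN1, SERTAD1, FAS, TNFRSF10A, AEN, FDXR, TRIAP1, XPC, DDB2 and RRM2B. Leaving out 1 library took away the call of 9 of these 16 differences. BTG2 kept its call only without siMYC B (0.538 to 0.98 where lost), and TRIAP1 only without empty vector A or siNC A (0.619 to 0.942 where lost). DDB2 lost it without empty vector A, MGA A, siNC B or siMYC A (0.686 to 0.904), FDXR without siNC B (0.618), XPC without siNC A (0.58) and RRM2B without empty vector B (0.614), beside GDF15, SESN1 and FAS above. Scaling also mattered: the call of BTG2 was lost with RLE factors, upper-quartile factors, library sizes alone and the MGA gene removed (0.763 to 0.897), that of TRIAP1 with the last 3 of these (0.702 to 0.788) and that of DDB2 with library sizes alone (0.802). DESeq2 called 5 differences and limma on TPM called 1, that of AEN.

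**Figure D2:**
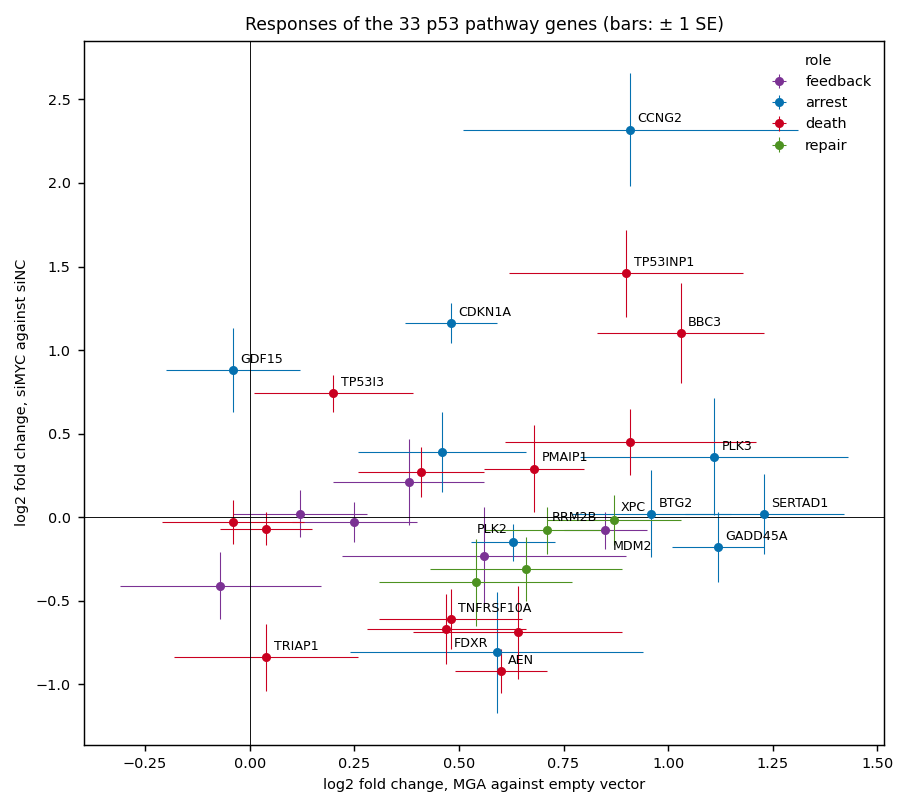
Log2 fold change with MGA against empty vector (horizontal) and with siMYC against siNC (vertical) for the 33 genes, coloured by role, with bars of 1 SE each way and names for genes called in either comparison. Most points lie right of 0, at 30 of 33, and spread above and below 0 vertically, from -0.92 for AEN to 2.32 for CCNG2.

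The levels of the members differed between the control libraries of the experiments. In TPM, which corrects for gene length, both empty vector libraries were above both siNC libraries for 21 of the 33 members (63.6%), against 26.5% of the 16269 genes expressed in TPM. TP53I3 was the 1 member (3.03%) with both empty vector libraries below both siNC libraries, against 23.8% of those genes, and 11 members overlapped. The median ratio of mean TPM, empty vector over siNC, was 1.88 over the members, beside 1.02 over all genes on mean TPM + 1. Vector-carrying and siRNA-treated cells differ in handling as well as in the agent, these cannot be told apart here, and the levels were not tested.

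PMAIP1 had 225.2 and 240.4 TPM with empty vector against 12.89 and 13.07 TPM with siNC, a ratio of 17.9. GADD45A had 462 and 514.7 TPM with empty vector against 34.74 and 44.03 TPM with siNC, a ratio of 12.4. GDF15 had 179.7 and 235.8 TPM with empty vector against 29.85 and 22.1 TPM with siNC, a ratio of 8.0. These 3 genes, with BBC3 (5.6) and PPM1D (4.29), had the largest ratios. TP53I3 went the other way, with 91.45 and 77.54 TPM with empty vector against 183.7 and 224.1 TPM with siNC, a ratio of 0.414. The order of the members within a cell state differed accordingly. GADD45A had the highest mean level with MGA (1040 TPM) and with empty vector (488 TPM), TP53I3 had the highest with siMYC (387 TPM) and RPS27L had the highest with siNC (288 TPM). GADD45A stood above PLK2, the next in order, in every library of the vector experiment. With siNC, RPS27L (272.5 and 303.3 TPM) stood above BAX (215.6 and 246.8 TPM), and the next genes, BAX and TP53I3, overlapped. TP53INP1 had the lowest level with MGA (10.3 TPM), empty vector (5.42 TPM) and siNC (2.62 TPM), and SESN1 had the lowest with siMYC (4.38 TPM).

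**Figure D3:**
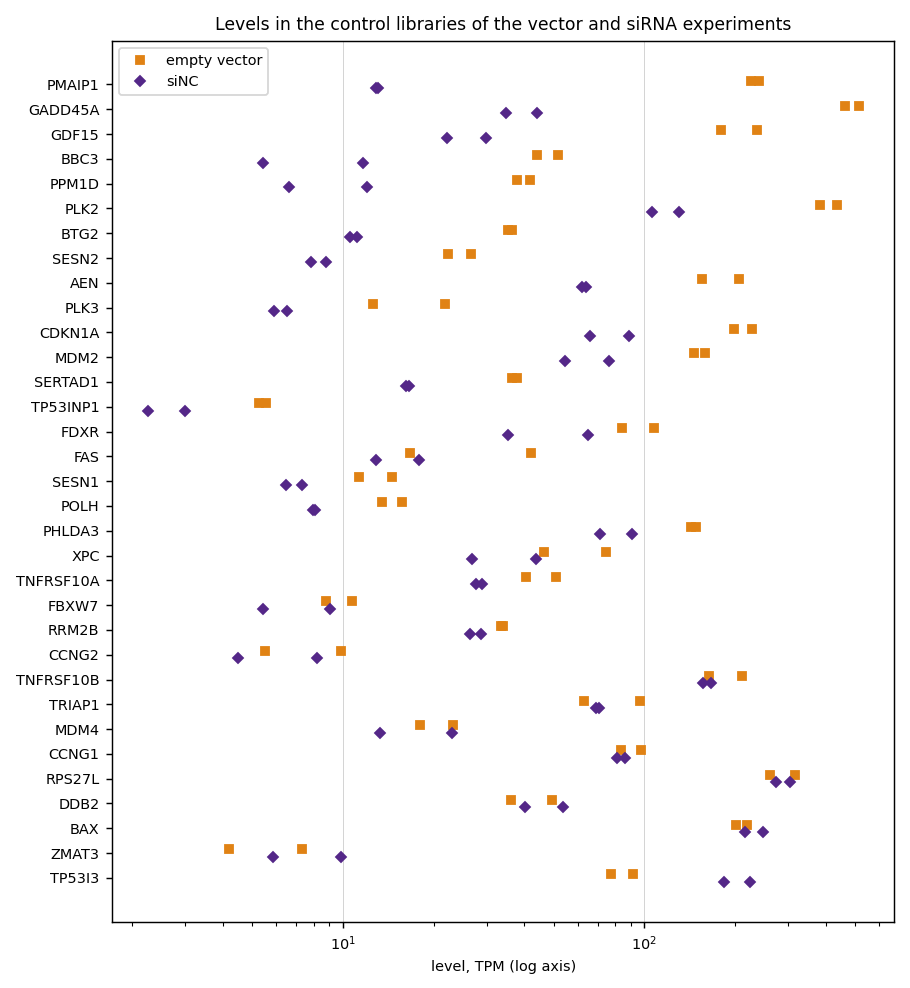
Level in TPM (log axis) of the 33 genes in the empty vector and siNC libraries, 1 point a library, ordered from the largest ratio of means (PMAIP1, 17.9) to the smallest (TP53I3, 0.414). Empty vector points lie right of both siNC points for 21 genes and left of both for TP53I3.

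The files also give each gene a length in every library, which RSEM weights by the isoforms it estimates, so that it moves when isoform use moves. Over all 8 libraries this length differed by over 1.5 times for 9 members. POLH had weighted lengths of 1793 and 1257 bases with siMYC against 3540 and 3540 bases with siNC, and of 3526 and 3540 bases with MGA against 3540 and 3468 bases with empty vector. Its length was thus shorter in the siMYC libraries than in any other. For this gene the units disagreed: POLH had 15.17 and 13.5 CPM with siMYC against 18.57 and 19.24 CPM with siNC, but 15.34 and 20.04 TPM with siMYC against 7.95 and 8.05 TPM with siNC. Its log2 fold change was -0.39 in counts (edgeR adjusted p = 0.25) and 1.04 on log2(TPM + 1) (limma adjusted p = 0.071), so no direction is given for it. Exons of POLH overlap those of GTPBP2 on the opposite strand.

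TP53INP1 also had a shorter weighted length with siMYC, 4885 and 4895 bases against 5631 and 5631 bases with siNC, and its rise was called in either unit. CCNG2 had 2307 and 2733 bases with siMYC against 1576 and 1301 bases with siNC, and its log2 fold change of 2.32 in counts became 1.5 on log2(TPM + 1), which was not called (limma adjusted p = 0.077). MDM2 had 2685 and 2902 bases with MGA against 3083 and 3162 bases with empty vector, and 4188 and 4160 bases with siMYC against 2854 and 4378 bases with siNC. Its siRNA groups overlapped in length. POLH, TP53INP1 and CCNG2 have few reads for isoform estimates in libraries of this depth, while MDM2 had 197.9 to 596.8 expected counts. Lengths were not tested.

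**Figure D4:**
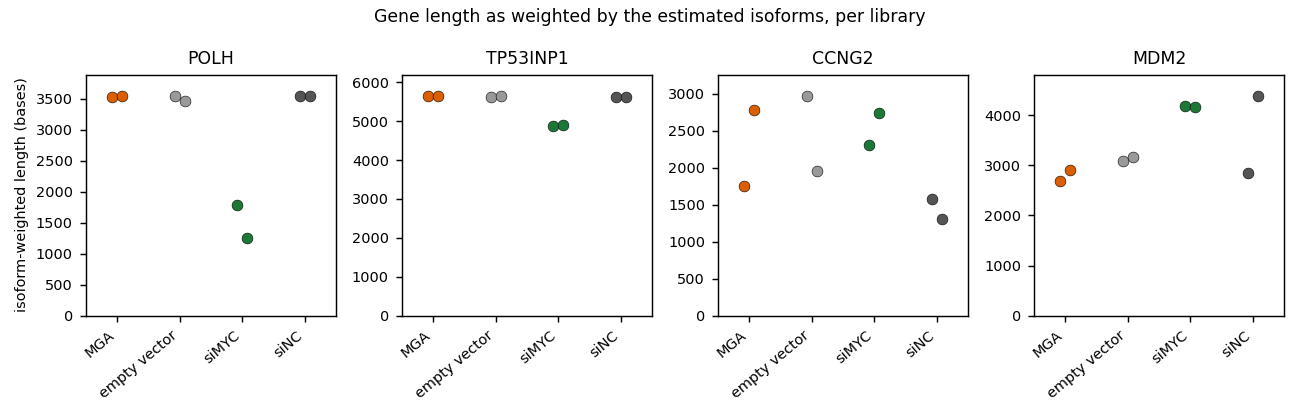
Isoform-weighted length in bases of POLH, TP53INP1, CCNG2 and MDM2 in each library, with MGA left of empty vector and siMYC left of siNC, 1 point a library. POLH falls to 1793 and 1257 bases with siMYC against 3540 bases in both siNC libraries.

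A list of 26 genes was used for the core and upstream regulators of the pathway, of which 24 were tested. CDKN2A was listed at 0 expected counts in all 8 libraries. With MGA 3 rose and 2 fell: SIRT1, a deacetylase of p53 (log2 fold change 0.69, adjusted p = 0.013 in edgeR), and TP53BP2, a cofactor that directs p53 to death genes (0.56, adjusted p = 0.028), were among those that rose. NPM1, the nucleolar protein that holds ARF and binds MDM2 (-0.51, adjusted p = 5.2e-05 in edgeR), and TRIM28, a corepressor that works with MDM2 (-0.35, adjusted p = 0.019), were the 2 that fell. With siMYC 6 rose and 8 fell. NPM1 had 658.6 and 651.1 CPM with siMYC against 2025 and 2005 CPM with siNC (log2 fold change -1.62, SE 0.07, edgeR adjusted p = 6.8e-15). RPL23 (-0.83) and RPL5 (-0.73), ribosomal proteins known to bind MDM2, fell with siMYC (edgeR adjusted p = 9.8e-09 for RPL23 and 7.6e-08 for RPL5), and HIPK2, a kinase that phosphorylates p53, rose (0.81, edgeR adjusted p = 5.3e-07). As shares, 12.5% rose and 8.33% fell with MGA, beside 4.96% and 4.0% of all genes tested, and 25.0% rose and 33.3% fell with siMYC, beside 19.0% and 20.0% of all genes tested.

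A wider list of 40 other p53 target genes, none of them members, had 38 tested. With MGA 2 rose, 5.26% and close to the background of 4.96%, and 1 fell. PERP, a desmosomal p53 target, rose (log2 fold change 0.81, SE 0.14, edgeR adjusted p = 0.00037), as did BLOC1S2 (0.74, edgeR adjusted p = 0.0097), and TSKU, a secreted proteoglycan, fell (-1.06, SE 0.12, edgeR adjusted p = 1.1e-06). The median of these 38 genes was 0.27, between the 0.59 of the members and the 0.011 of all genes tested, and 29 of the 38 values were positive. With siMYC 8 rose (21.1%) and 7 fell (18.4%), again close to the background shares, with a median of 0.06. PERP rose there too (0.81, edgeR adjusted p = 2.3e-06), as did TP53I11 (1.94, edgeR adjusted p = 4.8e-10), while the decoy receptor gene TNFRSF10D (-0.95, edgeR adjusted p = 6.1e-05) and SFN, the checkpoint protein 14-3-3 sigma (-0.74, edgeR adjusted p = 0.00018), fell.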

How the data were processed

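RNA of 8 A549 libraries was measured by poly(A)-selected sequencing, per the labels' protocols. STAR, RSEM and hg19 are named in the submitters' processing notes. Tool versions, annotation and strand use: not given in the sources used here. Per the file headers, the authors' tables hold the expected count, TPM, FPKM (not used) and an isoform-weighted length of each gene. A deposited expected count need not be whole, since RSEM divides reads among genes, and 3 members had such values. The authors' TPM corrects for length and sums to a fixed total in each library. No spike-in is named, so all values are relative.

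Expected counts were rounded, filtered with filterByExpr (minimum count 10, minimum total 15; 11218 genes left), given TMM factors and fitted jointly with edgeR 4.0.16 under R 4.3.3, as 4 groups of 2 with 4 residual degrees of freedom and a common biological coefficient of variation of 0.0623. The quasi-likelihood F test (two-sided) was used, with Benjamini-Hochberg adjustment over all genes tested. The SE is the log2 fold change divided by the square root of F, and 95% intervals use the fit's degrees of freedom. CPM values are TMM-scaled. Exact permutation was not used, since 2 libraries against 2 allow no p under 0.333. Replicates differed by more than sampling noise and were kept apart (chi-square over its degrees of freedom: MGA 1.14, empty vector 1.18, siMYC 1.79, siNC 1.77). The fits were checked on simulated data. TPM levels were compared over 16269 genes with a TPM of at least 1 in 2 libraries.

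Alternatives were other size factors, no filter or a minimum count of 50, DESeq2 1.42.0, limma 3.58.1 on log2(TPM + 1) and log2(TPM + 0.1), fits of the 4 libraries of an experiment, a replicate block, leaving out the MGA gene, and leaving out each library. Members and lists were chosen with earlier results of these data known. Members got full values if called in an experiment and among its 12 smallest adjusted p, or if among the 8 smallest in the difference of responses; POLH was described by library after its values were seen; in the other lists, the 4 called genes with the smallest p per experiment were named, with CDKN2A, and 1 listed gene is not reported here. Promoters came from RefSeq (GRCh38.p14). Names of overlapping genes came from GENCODE on GRCh38, in which exons of 13 members overlap another gene; whether the files' annotation has these overlaps was not checked. No hg19 coordinates are given.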

Additional observations from a re-analysis of the deposited data

How the results depend on the processing

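No called member changed direction under an alternative. The 1005 genes called with MGA became 358 with DESeq2, 71 on log2(TPM + 1) and 80 on log2(TPM + 0.1), and 402 to 474 when 1 of the 4 vector libraries was left out (434 without empty vector A, 405 without empty vector B, 402 without MGA A and 474 without MGA B; 1121 at most without an siRNA library). The 4370 genes called with siMYC became 1971, 947 and 934 under the first 3 settings, and 3299 to 4315 without 1 library. The 2076 genes whose responses differed became 827, 196 and 182, and 1309 to 1937 without 1 library (1373 without empty vector B, 1309 without MGA A). The 13 members higher with MGA became 0 on either TPM scale and 9 to 15 without 1 library. The 6 members higher with siMYC became 3 on log2(TPM + 0.1) and 5 to 7 without 1 library. The 4 lower became 1 with DESeq2 and on both TPM scales, and 3 to 5 without 1 library. The 16 members whose responses differed became 5 with DESeq2 and 1 on both TPM scales, and 10 to 14 without 1 library (10 without empty vector B or siNC B). DESeq2 gave no adjusted p to 8 members with MGA. The cause of these changes was not tested. The letters A and B pair no samples in the labels, and A minus B differences correlated at -0.0212 between MGA and empty vector and 0.133 between siMYC and siNC. A fit with a replicate block called 1097 genes with MGA, 4547 with siMYC and 2180 differences, with 15 members higher with MGA, 7 higher and 4 lower with siMYC and 16 differing. The difference of responses could not be had from fits of 4 libraries. At this depth a member with few reads, such as PLK3, CCNG2 or TP53INP1, has an SE of 0.26 to 0.40.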
